A study of Mus musculus with 12 samples.

Results

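The comparison described here set N2a cells rescued with the exon-3-containing isoform of Sap30bp against the same cells after knockdown alone. Its members are 4 of the 12 libraries of the study, chosen by their labels: 2 rescue libraries and 2 knockdown libraries of the exon-3-containing line. N2a is a mouse neuroblastoma cell line, here with a Flp-In site and rtTA, the doxycycline-dependent activator. In the rescue group, cells carrying a FLAG-tagged Sap30bp cDNA with exon 3 received an siRNA against Sap30bp and doxycycline, which switches the siRNA-resistant cDNA on. In the knockdown group, the same cells with the same cDNA received the Sap30bp siRNA without doxycycline. In the control group of the line, 2 libraries came from these cells with a non-targeting siRNA and no doxycycline. The exon-3-lacking line carries the cDNA without exon 3 and has the same rescue, knockdown and control groups of 2 libraries each. Medium with or without doxycycline was given 24 h after transfection, cells were collected at 72 h, and matching wells were pooled within a replicate. All groups were N2a Flp-In rtTA cells that retained their own Sap30bp gene. Whether a line is a single clone was not given in the sources used here. No group had doxycycline with the control siRNA, so the effect of the drug and that of the induced isoform cannot be told apart. Isoform and line are also the same factor and cannot be told apart.

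SAP30BP, a nuclear protein, works together with the splicing factor RBM17 in the removal of a subset of short introns. Introns are removed after the 5′ splice site, the branch site and a pyrimidine-rich stretch before the 3′ splice site have been recognised, and short introns often have a weak pyrimidine stretch that the standard factor U2AF binds poorly. Exon 3 of Sap30bp is a cassette exon, which can be kept in or left out of the mature mRNA, and neural and non-neural cells use it to different degrees.

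The sequence of exon 3 is shown because it is all that distinguishes the induced isoform from that of the other line. It is 48 nt long, a multiple of 3, and was read from the GENCODE M21 transcripts on GRCm38, plus strand, chr11:115938010-115938057. No letter is capitalised.
Sap30bp exon 3: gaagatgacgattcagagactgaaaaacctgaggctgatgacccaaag

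Introns are shown for the other end of the comparison: sites whose retention was lower after rescue. The authors' deposited table calls 38 introns as retained less after rescue that it also calls as retained more on knockdown in exon-3-lacking cells. Of these, 29 could be matched to GENCODE M21 by gene and length, and 10 of them lay inside an exon of another transcript, from which the sequence was read. The 6 shortest of the 10 follow, with the first 6 bases (the 5′ splice site) and the last 20 bases (the 3′ splice site and the stretch before it) in capitals. They lie at chr5:135375486-135375554 (Nsun5, plus strand), chr15:76692941-76693013 (Ppp1r16a, plus strand), chr15:76593860-76593937 (Adck5, plus strand), chr5:20896705-20896792 (Rsbn1l, minus strand), chr2:25355722-25355813 (Dpp7, minus strand) and chr4:108626377-108626479 (Cc2d1b, plus strand), all on GRCm38.
Nsun5: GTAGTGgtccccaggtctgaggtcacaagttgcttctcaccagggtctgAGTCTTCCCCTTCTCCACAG
Ppp1r16a: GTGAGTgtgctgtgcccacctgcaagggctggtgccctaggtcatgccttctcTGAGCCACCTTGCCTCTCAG
Adck5: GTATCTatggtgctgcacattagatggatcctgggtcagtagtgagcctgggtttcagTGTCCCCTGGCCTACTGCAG
Rsbn1l: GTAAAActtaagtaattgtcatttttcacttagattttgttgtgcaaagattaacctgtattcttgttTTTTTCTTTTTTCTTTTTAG
Dpp7: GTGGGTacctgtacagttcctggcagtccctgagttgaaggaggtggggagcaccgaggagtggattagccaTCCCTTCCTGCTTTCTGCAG
Cc2d1b: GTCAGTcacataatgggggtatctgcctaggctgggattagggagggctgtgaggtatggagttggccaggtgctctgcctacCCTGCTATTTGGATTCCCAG
All 6 begin with GT and end with AG. The last 20 bases held 15 pyrimidines (C or T) in Nsun5, 13 in Ppp1r16a, 13 in Adck5, 18 in Rsbn1l, 16 in Dpp7 and 13 in Cc2d1b. Their G and C content was 56.5% in Nsun5, 61.6% in Ppp1r16a, 53.8% in Adck5, 57.6% in Dpp7 and 55.3% in Cc2d1b, and 23.9% in Rsbn1l, whose last bases are almost a run of T.

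Splicing was measured as percent spliced in: the percentage of transcripts of a gene that retain an intron, include an exon or use an alternative splice site. The inclusion table gave a value for 187962 and 183792 events in the rescue libraries, and for 182904 and 183213 in the knockdown libraries. No read numbers come with these values, so the depth is unknown. Replicates differed by a median of 2.38 points between the rescue libraries and 2.69 points between the knockdown libraries. Gene expression was available as 1 RPKM value per group with the authors' own tests. Of the 18 lineage markers looked up, Hand2 (139.86 RPKM in rescue, 155.48 in knockdown, 82.55 in control), Phox2a, Gata2, Chgb, Stmn2 and Tubb3 were present, while Nefl and Nefm were at 0.02 RPKM or less and Th at 0.23 in rescue cells, all in the authors' deposited table. In the authors' deposited table the 18 summed to 1175.79 RPKM in rescue, 1375.81 in knockdown and 1152.09 in control cells. The 10 fibroblast markers summed to 57.77, 62.55 and 137.89 RPKM in rescue, knockdown and control cells, almost all of it Fbln1, with Col3a1 at 0 in each group. The 10 glial and immune markers summed to 9.96, 10.53 and 11.61 RPKM in that order, with Sox10 at 0. Their part in the results below was not tested. In bulk RNA, fewer cells of a type and less RNA per cell cannot be told apart.

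Sap30bp itself was the clearest difference. In the authors' deposited table it stood at 141.28 RPKM in rescue, 18.6 in knockdown and 33.59 in control cells. The authors' deposited table gives a log2 fold change of 1.62 for rescue against knockdown (FDR 7.13e-11), and no other gene passed: 1 of 21541 genes with a test, or 0.00464%, had an FDR under 0.05. Taken as a ratio, the 2 RPKM values in the authors' deposited table differ by 2.92 on the log2 scale with a pseudocount of 0.1 RPKM, more than the deposited fold change does. The reads of Sap30bp can come from the gene or from the cDNA, and the RPKM does not separate them. Rbm17, whose product binds SAP30BP, was listed at 112.79 RPKM in rescue, 115.26 in knockdown and 104.75 in control cells in the authors' deposited table (log2 fold change -0.06, FDR 1.0).

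Inclusion of exon 3 (mm9 chromosome 11, 115799324 to 115799371) was 98.81% and 99.19% in the rescue libraries, 96.32% and 96.80% in the knockdown libraries and 94.01% and 95.77% in the control libraries. The groups did not overlap, yet all 6 libraries were close to full inclusion. Rescue minus knockdown was 2.44 points (SE 3.01; adjusted p = 0.946, limma), a difference that did not pass the test. That SE draws on the spread within all 6 groups of both lines. The SD was 0.27 points in rescue and 0.34 in knockdown here, but 4.12 and 4.55 in rescue and knockdown of the exon-3-lacking line. The test therefore does not measure the spread of the compared libraries alone. In the exon-3-lacking line the same exon was at 11.69% and 5.87% in rescue, 74.34% and 67.91% in knockdown and 90.88% and 89.98% in control libraries. There the induced transcripts can be told from the gene's own by exon 3, and in the exon-3-containing line they cannot.

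**Figure D1:**
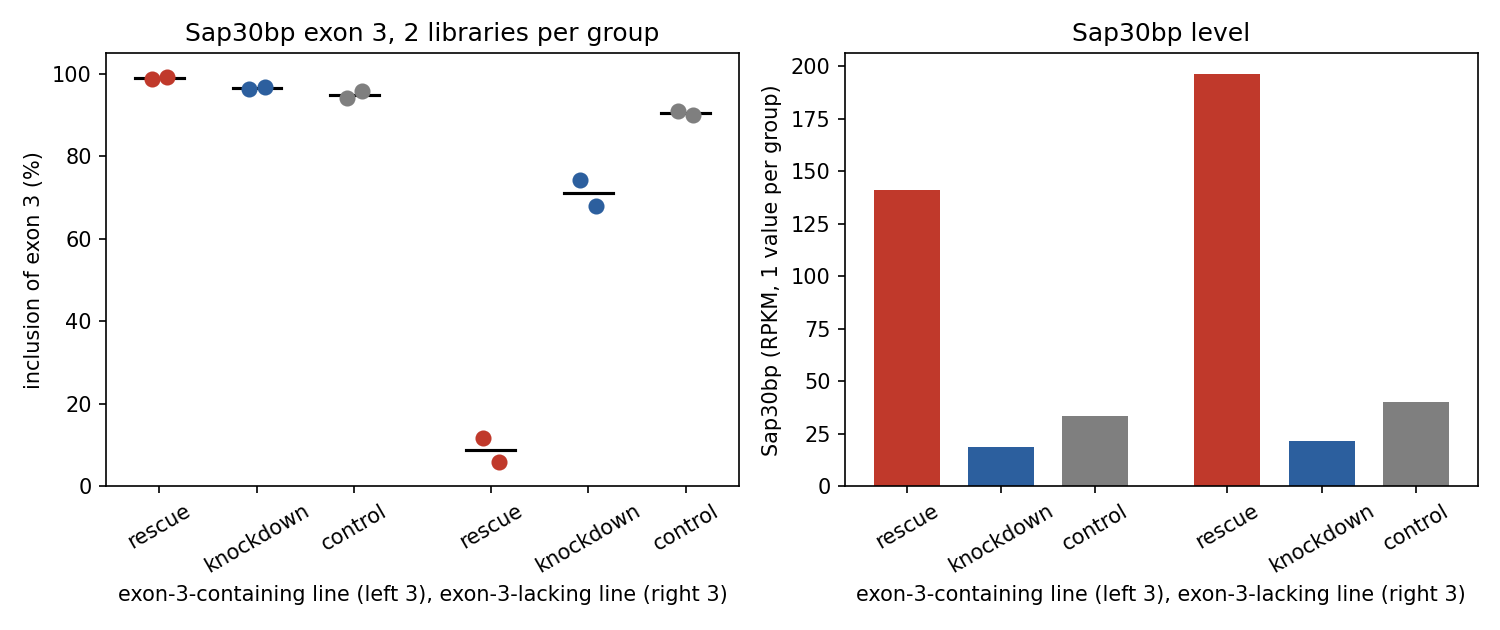
Inclusion of Sap30bp exon 3 in percent (left, 1 point per library, bar at the mean of 2) and the authors' RPKM of Sap30bp (right, 1 value per group) in rescue, knockdown and control cells of each line. With exon 3 in the cDNA the level is 141.28 RPKM in rescue against 18.6 in knockdown while exon 3 stays above 94% in every library.

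The other exons of Sap30bp gave 2 gaps. Exons of 89 nt and 92 nt (mm9 chromosome 11, 115818675 to 115818763 and 115821814 to 115821905) had no value in either rescue library. In the knockdown libraries the 89-nt exon was included at 98.81% and 100% and the 92-nt exon at 100% in each, and in the control libraries both were at 100%. The exon-3-lacking line had the same gaps in its rescue libraries and values in its other 4. Of 72615 exons with a value in the 4 knockdown and control libraries of the exon-3-containing line, 192 lacked one in both rescue libraries, and 6 of these, in 5 genes, also lacked one in both exon-3-lacking rescue libraries while having one in the other 8 libraries. Among 10 introns of Sap30bp, mean retention was lower in rescue than in knockdown in 7, equal in 2 and higher in 1. The higher intron, of 3050 nt, had a value in only 1 rescue library, 9.09%, against 4.35% and 8% in knockdown. Transcripts of the cDNA hold no introns and count as spliced. A change in the splicing of the gene's own transcripts therefore cannot be told apart from the added cDNA transcripts here. The 1390-nt intron (115823867 to 115825256) was retained at 0.82% and 3.39% in rescue, 11.43% and 6.45% in knockdown and 4.13% and 2.99% in control libraries.

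Across all events, no single splicing difference passed the test. Of 28980 events in 7019 genes, 0 (0%) had an adjusted p under 0.05 with at least 15 points of difference in limma with Benjamini-Hochberg adjustment. At an unadjusted p under 0.05 there were 1983 events (6.84%), of which 1049 were lower and 934 higher in rescue. With a plain empirical Bayes variance 2 events passed, and with each library left out in turn between 0 and 8 did. The 8 came without replicate 1 of the knockdown group, and 2 passed without its replicate 2. The authors' deposited table calls 152 events for the same comparison, 56 higher and 96 lower in rescue, and the rule behind those calls was not given in the sources used here. By class, the authors' deposited table calls 78 introns as retained less and 19 as retained more after rescue. There are 29 cassette exons over 27 nt called as included more and 5 as included less, and all 3 called microexons (3 to 27 nt) as included less, again in the authors' deposited table. Alternative 3′ sites were called 4 times higher and 5 times lower in the authors' deposited table, and so were alternative 5′ sites.

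Introns were lower in rescue where they were short. Among 1958 introns under 100 nt the median difference was -1.71 points, 1460 (74.6%) were lower in rescue, and at an unadjusted p under 0.05 12.2% were lower and 0.868% higher. Among 2106 introns of 100 to under 200 nt the median was -0.64 points, with 5.37% lower and 1.23% higher. Among 3158 introns of 200 to under 500 nt it was -0.21 points (3.74% lower, 2.41% higher), and among 2781 of 500 to under 1000 nt it was -0.01 points (2.77% each way). Among 7093 introns of 1000 nt or more it was 0.085 points, with 2.31% lower and 3.07% higher. Over all 17096 introns, 4.15% were lower and 2.42% higher, and the median was -0.24 points. These shares describe the libraries and no test was made across introns, which share genes and libraries.

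The median retention of introns under 100 nt was 5.36% and 5.88% in the rescue libraries, 6.46% and 8.18% in the knockdown libraries and 2.94% and 4.08% in the control libraries. Each group stood apart from the others, with rescue between knockdown and control. For introns of 1000 nt or more the library medians were 4% and 4.46% in rescue, 3.26% and 5.00% in knockdown and 3.17% and 4.35% in control, and here the groups overlapped.

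**Figure D2:**
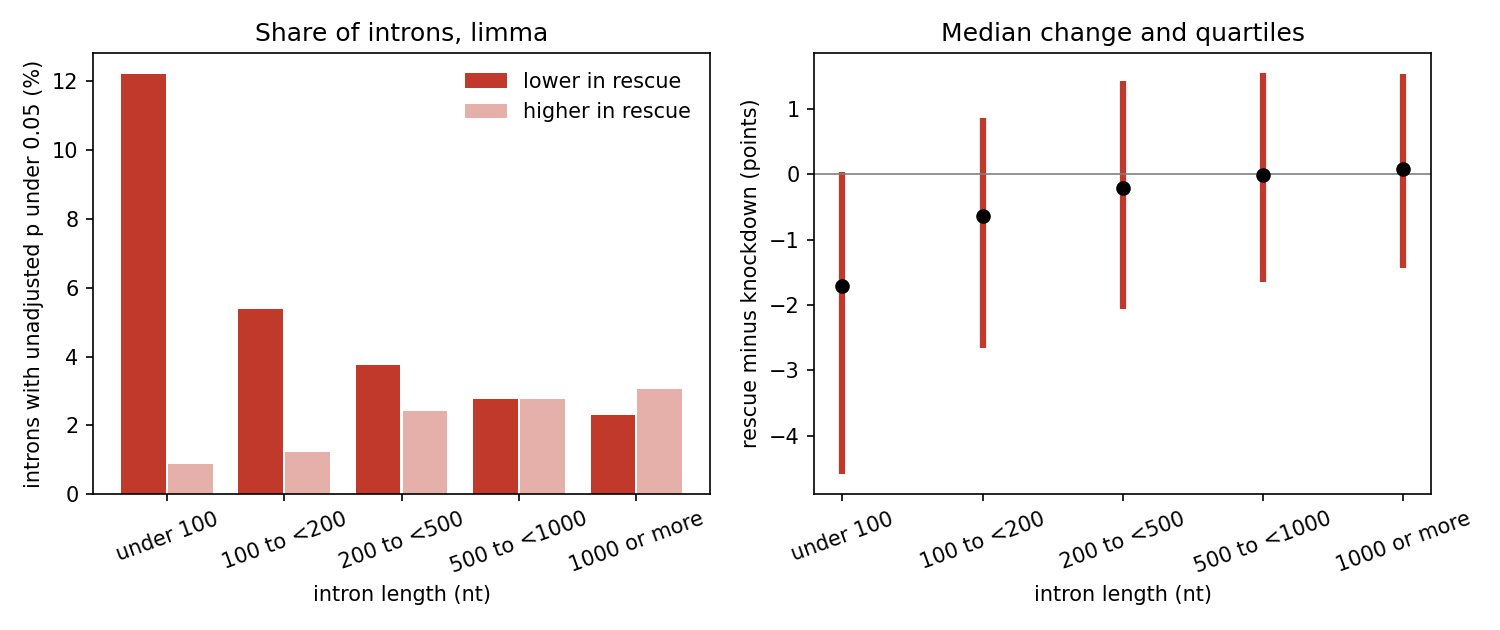
Introns by length class: share with an unadjusted limma p under 0.05 in percent, lower or higher in rescue (left), and the median difference of rescue minus knockdown in points with its quartiles (right). The share lower in rescue is 12.2% under 100 nt and 2.31% at 1000 nt or more.

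Introns called on knockdown of Sap30bp were examined next, chosen in libraries that this comparison does not use. The authors' deposited table calls 444 introns as retained more on knockdown in exon-3-lacking cells, and 257 of them, in 178 genes and with a median length of 91 nt, had the values needed here. Their median retention was 24.73% and 26.03% in the rescue libraries, 34.55% and 38.24% in the knockdown libraries and 11.11% and 15.40% in the control libraries. Rescue lay below knockdown and above control in every library. The median difference of rescue minus knockdown was -8.90 points (SD 2.14, from the library medians), and 231 of the 257 introns were lower in rescue. Both rescue libraries were below both knockdown libraries in 145 (56.4%), against 17.9% of all tested introns, and 82 (31.9%) had an unadjusted p under 0.05 with lower retention, against 4.15% of all. In the same introns the median difference of knockdown minus control was 21.46 points and that of rescue minus control 11.42 points; these comparisons share libraries with each other and with the one above. Without replicate 2 of the knockdown group the median difference of rescue minus knockdown was -6.67 points. None of these introns passed the adjusted test singly. All tested introns stood lower in knockdown, with library medians of 4.17% and 5.88%. The part of that lower level in the contrasts with all introns was not tested.

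Within this set, the 146 introns under 100 nt had a median difference of -9.77 points, with 139 lower in rescue. The 45 introns of 100 to under 200 nt had -7.14 points with 41 lower, and the 66 of 200 nt or more had -7.36 points with 51 lower. Library medians of the introns under 100 nt were 19.50% and 21.50% in rescue, 31.38% and 34.31% in knockdown and 7.22% and 10.74% in control. Introns of 200 nt or more in the set were at 33.15% and 32.92% in rescue, 36.86% and 44.44% in knockdown and 15.06% and 21.52% in control, with no overlap either. The 1812 introns under 100 nt that are not in the set had a median difference of -1.51 points, with 1321 lower in rescue, and 9.93% of them were lower at an unadjusted p under 0.05.

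Cassette exons gave the opposite picture. The authors' deposited table calls 168 exons as included less on knockdown in exon-3-lacking cells, of which 99 in 94 genes were tested. Their median inclusion was 60.54% and 59.41% in rescue, 53.25% and 54.08% in knockdown and 75.86% and 72.34% in control libraries, again with no overlap. The median difference of rescue minus knockdown was 7.02 points (SD 1.32, from the library medians), and 80 of 99 were higher in rescue. Both rescue libraries were above both knockdown libraries in 49 (49.5%), against 21.3% of all 6738 tested exons, and 22 (22.2%) had an unadjusted p under 0.05 with higher inclusion, against 5.57% of all; no exon of the 99 had one with lower inclusion, against 2.49% of all. Knockdown minus control was -18.20 points and rescue minus control -11.33 points for these exons. Without replicate 1 of the rescue group the median difference of rescue minus knockdown was 4.99 points. Of the 99 exons, 7 lay next to an intron of the set above. All tested exons stood higher in knockdown, with library medians of 92.53% and 93.14%. The part of that higher level in the contrasts with all exons was not tested.

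**Figure D3:**
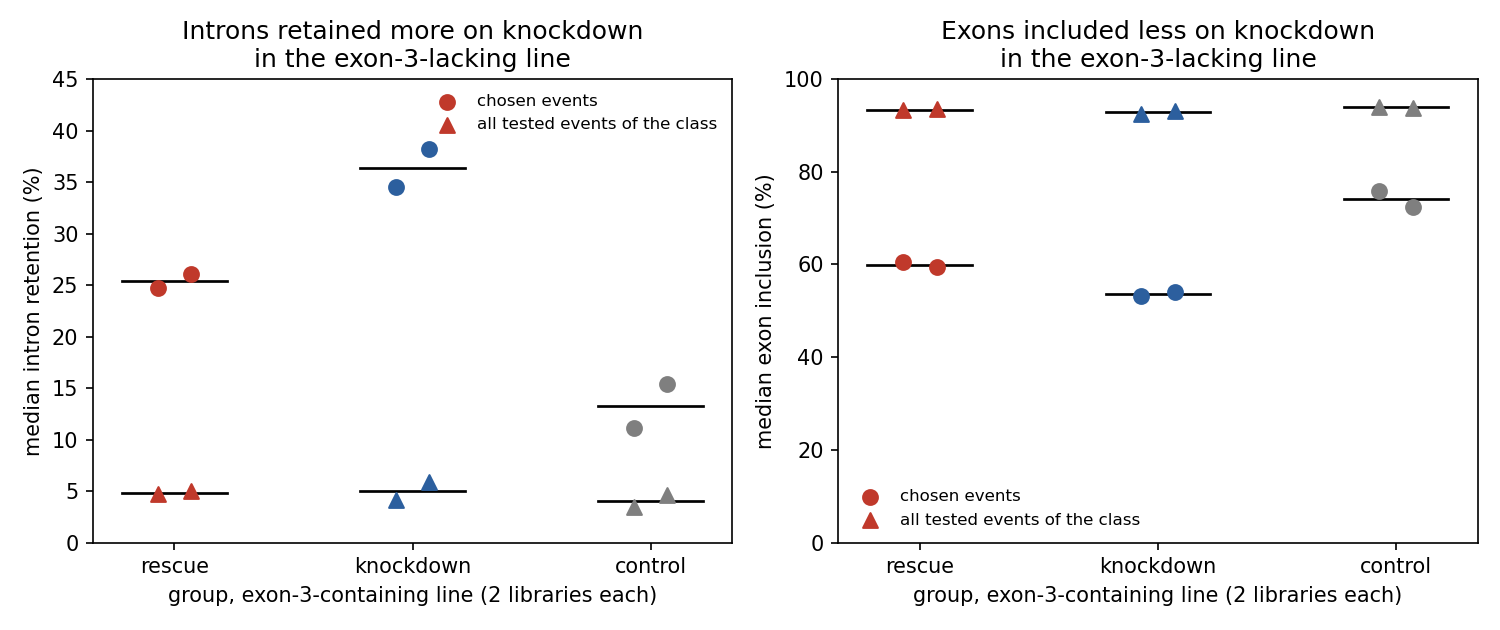
Median intron retention (left) and exon inclusion (right) in percent in each library of the exon-3-containing line, for events the authors call on knockdown in exon-3-lacking cells (circles) and for all tested events of the class (triangles), with a bar at the mean of 2 libraries. Rescue stands between knockdown and control for both sets.

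Events called the other way on knockdown gave medians of the other sign. The 31 introns that the authors' deposited table calls as retained less on knockdown in exon-3-lacking cells had a median difference of 4.30 points, with 25 higher in rescue and library medians of 29.66% and 29.18% in rescue, 21.16% and 25% in knockdown and 38.29% and 39.44% in control. The 36 exons that the authors' deposited table calls as included more there had a median difference of -3.72 points, with 24 lower in rescue. Their library medians were 57.52% and 58.08% in rescue, 61.50% and 62.36% in knockdown and 41.82% and 45.12% in control. Over all tested exons the median difference was 0.52 points, and over the 195 microexons, short exons typical of neurons, it was -0.50 points with 113 lower in rescue.

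The authors' calls could be set side by side for 2 comparisons with no library in common. The authors' deposited table calls 807 events for knockdown in exon-3-lacking cells and 152 for rescue in the exon-3-containing line. Both calls were carried by 49 events in the authors' deposited table, which is 6.07% of the knockdown calls and 32.2% of the rescue calls, and all 49 have opposite directions. They are 38 introns lower in rescue, 1 intron higher, 9 exons higher and 1 alternative 3′ site. The 38 introns lie in 32 genes and have a median length of 81 nt, with 26 under 100 nt and 6 of 100 to under 200 nt. In limma 28 of them were tested, and 10 were not, for lack of a value in some libraries. Among these 10, the 119-nt Gtpbp6 intron was at 37.93% and 68.42% in rescue, on either side of its only knockdown value of 62.79%. Of the 257 introns of the set, 28 (10.9%) carry the authors' call of lower retention in rescue, against 0.246% of all tested introns, and of the 99 exons 7 (7.07%), against 0.252% of all tested exons. The smallest rescue call was of 15.01 points. Knockdown medians were 4.17% and 5.88% for all tested introns, so most could not fall that far. They were 92.53% and 93.14% for all tested exons, so most could not rise that far. The other 103 rescue calls of the authors' deposited table include 40 introns lower in rescue with a median length of 243.5 nt and 18 introns higher with a median length of 1839 nt.

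Of the 38 introns, the largest difference was in the 70-nt intron of Dpp7, a lysosomal dipeptidyl peptidase (mm9 chromosome 2, 25210343 to 25210412). It was retained at 15.89% and 21.35% in rescue, 48.84% and 58.62% in knockdown and 4.41% and 14.29% in control libraries. Rescue was far below knockdown and above both control libraries, with means of 18.62% in rescue and 9.35% in control. Rescue minus knockdown was -35.1 points (SE 6.70, adjusted p = 0.301, limma). The 92-nt Dpp7 intron whose sequence is given above was at 39.89% and 48.76% in rescue, 52.13% and 68.15% in knockdown and 14.18% and 30.26% in control, with the rescue libraries below the knockdown ones and above control. A Dpp7 exon of 119 nt ran the other way, with 72.11% and 77.51% inclusion in rescue, 62.90% and 43.62% in knockdown and 87.65% and 88.39% in control.

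Adck5, a kinase-like protein of the aarF family, held a 78-nt intron at 27.66% and 36.59% in rescue, 49.47% and 76.92% in knockdown and 31.18% and 28.42% in control libraries. Here the rescue and control libraries overlapped, and the knockdown replicates were far apart (difference -31.1 points, SE 10.2; adjusted p = 0.596, limma). The 88-nt intron of Rsbn1l, the one with the T-rich end, was at 42.61% and 34.40% in rescue, 57.23% and 67.79% in knockdown and 22.22% and 28% in control. The 103-nt intron of Cc2d1b was at 14.89% and 6.67% in rescue, 48.15% and 25.81% in knockdown and 9.09% and 11.11% in control, so that rescue straddled control. The 69-nt intron of Nsun5, a ribosomal RNA methyltransferase, was at 14.56% and 28% in rescue, 33.33% and 47.37% in knockdown and 13.51% and 17.31% in control. The 73-nt intron of Ppp1r16a, a regulatory subunit of protein phosphatase 1, was at 12.20% and 14% in rescue and 28.89% and 30.36% in knockdown, with a single control value of 13.73%.

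Gnptg, a subunit of the enzyme that tags lysosomal hydrolases for transport, had a 77-nt intron (mm9 chromosome 17, 25372573 to 25372649) at 14.72% and 18.12% in rescue, 38.55% and 46.31% in knockdown and 6.71% and 8.81% in control libraries. The 115-nt intron of Slc26a10, of the anion transporter family, was at 38.78% and 18.75% in rescue, 65.22% and 50% in knockdown and 3.12% and 1.37% in control. Both were lower in rescue than in knockdown in each library, and the rescue libraries of Slc26a10 were far above control. Recql4, a RecQ DNA helicase, had a 71-nt intron at 17.89% and 20% in rescue, 35.80% and 34.38% in knockdown and 1.45% and 7.91% in control. Trrap, a scaffold of histone acetyltransferase complexes, had a 77-nt intron at 4.17% and 5.08% in rescue, 20% in each knockdown library and 0.87% and 4.17% in control.

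**Figure D4:**
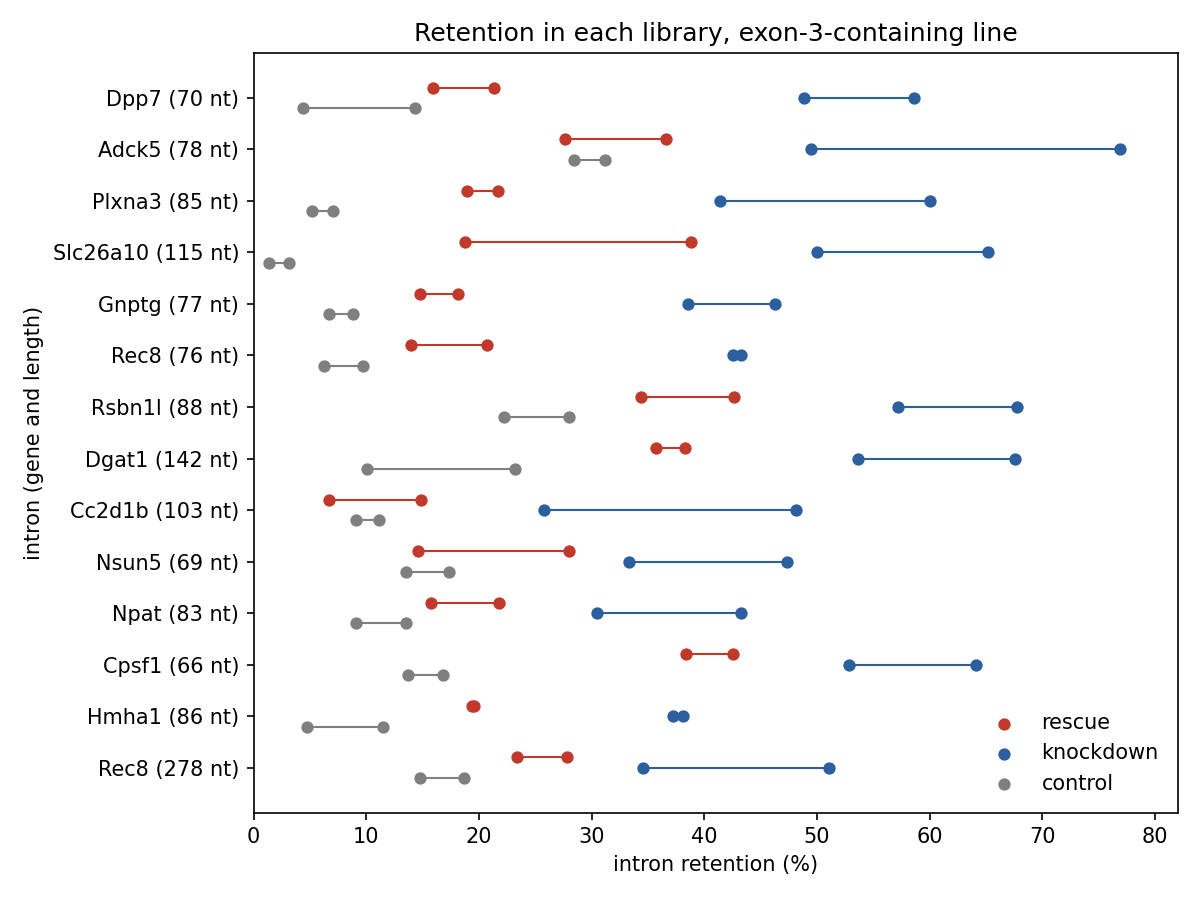
Retention in percent in each library of the exon-3-containing line (2 points per group, joined) for the introns with the largest authors' differences among those that carry both calls and have values in all 12 libraries. In Dpp7 (70 nt) the rescue libraries are at 15.89% and 21.35% and the knockdown libraries at 48.84% and 58.62%.

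More than 1 of the 38 introns lay in each of 4 genes, and within them the introns differed from each other. The genes were chosen by those introns, and the counts and medians that follow include the tested ones among them. Of all tested introns 54.2% were lower in rescue, and of those under 100 nt 74.6%. In Rec8, a meiotic cohesin subunit, 16 of 17 tested introns were lower in rescue, from -25.5 to 0.92 points with a median of -3.69. Its 76-nt intron was at 14% and 20.75% in rescue, 42.55% and 43.21% in knockdown and 6.25% and 9.68% in control, while its 1534-nt intron was at 10.06% and 9.09% in rescue, 9.64% and 10.16% in knockdown and 5.88% and 11.66% in control. In Plxna3, a semaphorin receptor, 21 of 25 were lower, from -30.4 to 2.41 points with a median of -3.58. Its 85-nt intron was at 18.92% and 21.65% in rescue, 41.41% and 60% in knockdown and 5.19% and 7.06% in control. A Plxna3 intron of 88 nt did not share this, with 14.85% and 14.89% in rescue, 8.33% and 16.60% in knockdown and 3.60% and 8.94% in control. In Cpsf1, the largest subunit of the complex that recognises the polyadenylation signal, 10 of 12 were lower, with a median of -4.36 points. Its 66-nt intron was at 42.58% and 38.36% in rescue, 64.15% and 52.87% in knockdown and 16.79% and 13.66% in control, whereas its 79-nt intron at 76428161 was at 2.59% and 2.30%, 1.57% and 2.89%, and 1.82% and 1.61% in rescue, knockdown and control. In Dpp7, 7 of 11 were lower, from -35.1 to 9.10 points.

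The 9 exons with both calls were all higher in rescue in the authors' deposited table. Of these, 7 were tested in limma, and those of Rab34 and Iqce lacked values in some libraries. The 186-nt exon of Rab34 was at 86.93% and 52.85% in rescue, on either side of its only knockdown value of 73.08%. Setd6, a lysine methyltransferase, had a 58-nt exon at 56.43% and 47.85% in rescue, 30.74% and 29.77% in knockdown and 63.75% and 58.80% in control libraries. Slc9a5, a sodium/proton exchanger, had a 71-nt exon at 49.47% and 43.55% in rescue, 30.25% and 25.19% in knockdown and 75.86% and 71.60% in control. Anks3, an ankyrin-repeat protein, had an exon at 63.84% and 69.92% in rescue, 46.03% and 46.15% in knockdown and 70.27% and 72.50% in control. In these 3 exons the rescue libraries were above both knockdown libraries and below both control libraries, and none passed the adjusted test in limma (adjusted p from 0.479 in Slc9a5 to 0.593 in Setd6).

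The events with the largest moderated t of each class, 1 per gene, are given as values, since none passed. The lowest adjusted p of all, 0.0914, was that of an 82-nt intron of Pkd1, which encodes the membrane protein polycystin-1 (mm9 chromosome 17, 24731324 to 24731405). It was retained at 4% and 7.69% in rescue, 34.62% and 36.00% in knockdown and 1.96% and 0% in control, a difference of -29.5 points (SE 3.60). It passed with an adjusted p of 0.0451 when exon-3-lacking rescue replicate 1 was left out and of 0.0346 when replicate 2 was, within a range of 0.0346 to 0.989 over all alternatives. The 106-nt alternative 3′ segment of Pitpnm1, a phosphatidylinositol transfer protein, was used at 88.89% and 85.00% in rescue, 68.69% and 66.67% in knockdown and 90.12% and 93.10% in control (19.3 points, SE 2.41; adjusted p = 0.0914, limma, and 0.0426 to 0.989 over the alternatives, the lowest with a plain variance). The 91-nt exon of Ikbkb, a kinase of the NF-kB pathway, was included at 84.71% and 85.71% in rescue, 62.50% and 67.16% in knockdown and 94.55% and 93.33% in control (20.4 points, SE 2.72; adjusted p = 0.117, limma). In each of these 3 events the rescue libraries lay between those of knockdown and control.

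Introns lower in rescue also included a 158-nt intron of Dapk1, a death-associated kinase, at 5.04% and 6.87% in rescue, 20.21% and 19.44% in knockdown and 1.10% and 1.37% in control, and a 67-nt intron of Actl6b, a neuronal subunit of chromatin remodelling complexes, at 2.13% and 2.70%, 14.89% and 27.27%, and 5.00% and 6.02% in rescue, knockdown and control. The Dapk1 intron differed by -13.9 points (SE 2.22; adjusted p = 0.256, limma), with an adjusted p from 0.00794, when no filter on the mean was set, to 0.989 over the alternatives, and its difference is under the 15 points a call needs. The Actl6b intron had an adjusted p of 0.301, and of 0.0294 to 0.989 over the alternatives, the lowest without knockdown replicate 1. The others of that class were in Med15 (162 nt), Nubp1 (1923 nt), Rec8 (76 nt), Gmip (293 nt) and Gnptg (77 nt). Introns higher in rescue were longer, with 650 nt in Mitd1, 847 nt in Coro1a and 4061 nt in Txndc11. The Mitd1 intron was at 31.58% and 30.43% in rescue, 5.56% and 10.34% in knockdown and 7.69% and 10.34% in control, so here rescue stood apart from both other groups. Exons higher in rescue included a 144-nt exon of Sik3, a salt-inducible kinase, at 100% in each rescue library, 79.17% and 83.87% in knockdown and 95.45% and 89.69% in control, and a 165-nt exon of the ETS transcription factor Etv4 at 98.01% and 96.93%, 86.89% and 85.59%, and 96.70% and 99.17% in rescue, knockdown and control.

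Among exons lower in rescue, the 12-nt microexon of Ank2, an ankyrin of the membrane skeleton, was at 51.68% and 50.80% in rescue, 68.20% and 71.13% in knockdown and 55.49% and 53.14% in control libraries (-18.4 points, SE 3.41; adjusted p = 0.301, limma, and 0.0426 to 0.989 over the alternatives, the lowest with a plain variance). A 43-nt exon of Vps8, an endosomal tethering subunit, was at 89.13% and 91.19% in rescue, 100% in each knockdown library and 92.37% and 90.84% in control. The Rbms3 exon of 158 nt was at 78.06% and 76.51% in rescue, 92.92% and 90.28% in knockdown and 85.33% and 92.61% in control, below both other groups in rescue. Among the named alternative sites, Hmbox1 (3 nt) was at 44.19% and 39.53% in rescue, 15.15% and 18.75% in knockdown and 41.67% and 51.06% in control. For none of the 30 events chosen by this rule did the difference of the rescue effect between the lines pass the test, with adjusted p-values from 0.765 to 0.997 in limma.

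The difference of rescue between the lines was tested for every event, and 1 of 28980 (0.00345%) passed: exon 3 of Sap30bp, which the design sets, with 64.8 points (SE 4.26; adjusted p = 2.61e-04, limma). An unadjusted p under 0.05 was found for 1528 events, that exon included. For the 257 introns of the set, library medians were 24.73% and 26.03% in exon-3-containing rescue and 14.75% and 21.52% in exon-3-lacking rescue, with controls of 11.11% and 15.40% and of 10.84% and 15.38%. Knockdown medians were 34.55% and 38.24% in the exon-3-containing line and 31.51% and 42.74% in the exon-3-lacking line. The set was chosen with the knockdown and control libraries of the exon-3-lacking line. The level of Sap30bp in rescue also differed (141.28 and 196.49 RPKM in the authors' deposited table), and the difference of these medians between the lines was not tested.

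Beyond Sap30bp, gene expression gave no single call. The authors' deposited table has 130 genes (0.604%) higher and 156 (0.724%) lower in rescue at an unadjusted p under 0.05. The next lowest p after Sap30bp in the authors' deposited table belongs to Adamtsl2, a secreted glycoprotein, at 1.58 RPKM in rescue, 3.45 in knockdown and 0.62 in control (log2 fold change -1.26, FDR 0.264). Actc1, cardiac actin, was at 0.87 RPKM in rescue, 3.45 in knockdown and 0.22 in control in the authors' deposited table (log2 fold change -1.98, FDR 1.0). Anxa2, a calcium-dependent membrane-binding protein, was at 43.54 RPKM in rescue, 71.32 in knockdown and 81.71 in control (log2 fold change -0.72, FDR 1.0 in the authors' deposited table). The first 2 had rescue values between knockdown and control, and Anxa2 in rescue was below both.

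Genes called on knockdown in exon-3-lacking cells mostly had a small difference of the other sign. Of 241 genes that the authors' deposited table calls higher on knockdown there, 174 were lower and 65 higher in exon-3-containing rescue, with a median log2 fold change of -0.18. Of 246 genes that the authors' deposited table calls lower on knockdown there, 170 were higher and 75 lower in rescue, with a median of 0.13, against -0.01 over all genes tested. In the exon-3-containing line the median log2 fold changes of the 241 genes in the authors' deposited table were 1.68 for knockdown against control and 1.37 for rescue against control, and those of the 246 genes were -1.04 and -0.94. Of the genes with the largest knockdown response, Cox6a2, a cytochrome c oxidase subunit of muscle, was at 71.47 RPKM in rescue, 80.85 in knockdown and 6.32 in control in the authors' deposited table. Capn6, a calpain family member, was at 69.19 RPKM in rescue, 121.88 in knockdown and 20.1 in control (log2 fold change -0.83, FDR 1.0 in the authors' deposited table). Ier3, an immediate early gene, was at 10.25, 12 and 41.02 RPKM in rescue, knockdown and control in the authors' deposited table, and Procr, the endothelial protein C receptor, at 12.45, 12.57 and 69.05 RPKM. Cox6a2, Ier3 and Procr in rescue were nearer to knockdown than to control. The 158 matched host genes (of 178) of the introns of the set had a median log2 fold change of -0.002 in the authors' deposited table, with 81 lower and 77 higher in rescue.

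Of the gene lists, 3 had all of their members on the same side in this comparison, and none of these members passed an FDR of 0.05. They were picked out of 24 lists for that uniformity, and the counts are a description. All 13 mitochondrially encoded genes, subunits of the respiratory chain and ATP synthase, were higher in rescue in the authors' deposited table, with a median log2 fold change of 0.42. In the authors' deposited table mt-Nd1 was at 5402.31 RPKM in rescue, 3643.58 in knockdown and 3121.14 in control (log2 fold change 0.60, FDR 1.0), and mt-Co1 at 7144.96, 5781.46 and 6657.12 RPKM (log2 fold change 0.29). Summed over the 13 genes, the authors' deposited table gives 102867 RPKM in rescue, 73772.2 in knockdown and 76192.9 in control. In the exon-3-lacking line 9 of the 13 were higher in rescue, with a median of 0.10 in the authors' deposited table. Of 43 nuclear respiratory chain genes, 28 were higher and 15 lower in exon-3-containing rescue, with a median of 0.05 in the authors' deposited table.

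All 24 tested genes of cholesterol synthesis and its control were lower in rescue, with a median log2 fold change of -0.26 in the authors' deposited table. Over the list, the median was 0.17 for knockdown against control and -0.12 for rescue against control in the authors' deposited table. Pmvk, the phosphomevalonate kinase of the pathway, was further below control than that median. It was at 25.78 RPKM in rescue, 35.27 in knockdown and 37.97 in control in the authors' deposited table (log2 fold change -0.46, FDR 1.0, and -0.61 for rescue against control). In the exon-3-lacking line 16 of the 24 were higher in rescue, with a median of 0.11 in the authors' deposited table. All 21 tested glycolytic and related genes were lower in exon-3-containing rescue, with a median of -0.23, and 19 of 21 were higher in exon-3-lacking rescue, with a median of 0.28, in the authors' deposited table. Pgk1, phosphoglycerate kinase, was at 311.33 RPKM in rescue, 392.92 in knockdown and 606.97 in control, and Pdk1, which restrains pyruvate entry into mitochondria, at 2.63, 4.57 and 8.1 RPKM in the authors' deposited table. None of these genes passed the test of the difference between the lines, which 2 of 21541 genes passed (0.00928%), and the lists as such were not tested.

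**Figure D5:**
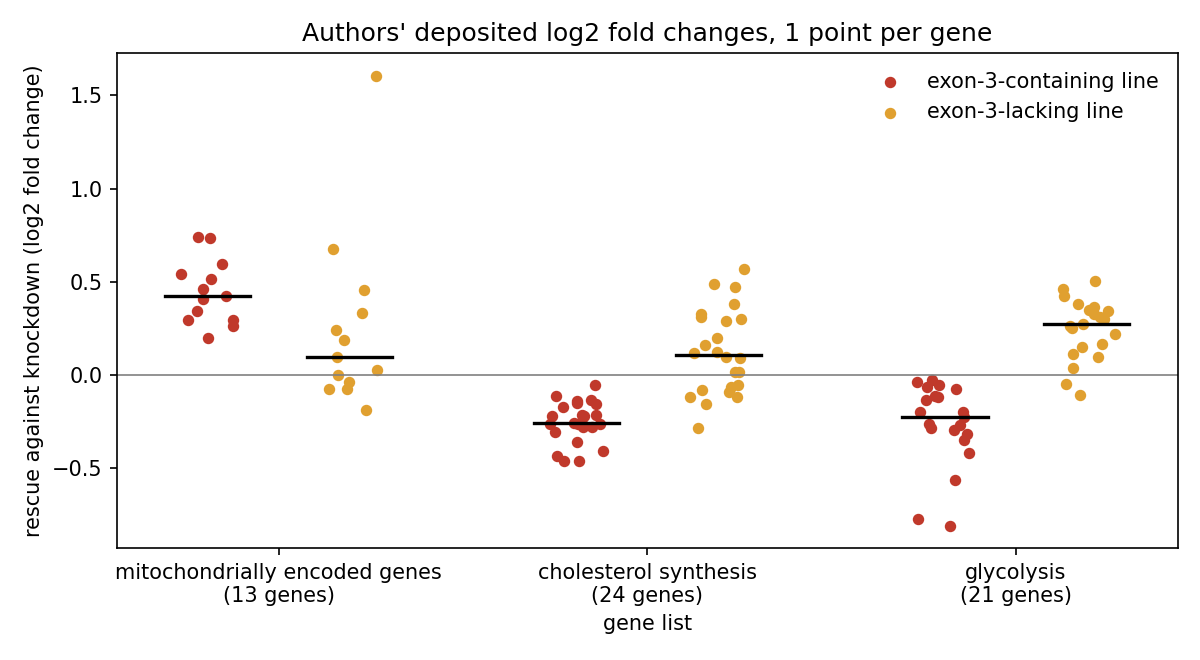
The authors' log2 fold change of rescue against knockdown for the members of 3 gene lists (1 point per gene, bar at the median), in exon-3-containing and exon-3-lacking cells. With the exon-3-containing isoform all 13 mitochondrially encoded genes are above 0, and all 24 cholesterol and 21 glycolysis genes are below 0.

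Of 56 core spliceosome genes, 42 were lower and 14 higher in rescue, with a median log2 fold change of -0.06 in the authors' deposited table, beside 0.24 for knockdown against control. Over all 21541 genes with a test, 51.4% were lower in rescue. Of 37 SR and hnRNP proteins, which bind exonic and intronic elements, 26 were lower and 11 higher (median -0.04), and of 23 nonsense-mediated decay and exon junction genes 17 were lower and 6 higher (median -0.07) in the authors' deposited table. The 19 factors of 3′ splice site recognition around RBM17 had 15 lower and 4 higher, with Sap30bp, the only 1 to pass, among the higher ones, in the authors' deposited table. U2af2, the large U2AF subunit, was at 101.95 RPKM in rescue, 117.37 in knockdown and 88.1 in control in the authors' deposited table (log2 fold change -0.20). Of 43 cytosolic ribosomal protein genes 23 were higher and 20 lower, and of 40 DNA replication genes 26 and 14, in the authors' deposited table. Of 30 G2 and M phase genes 22 were higher and 8 lower in the authors' deposited table. For 24 p53 targets the numbers were 10 and 14, and for 39 integrated stress response genes 23 and 16. Of 16 tested lineage genes 14 were lower in rescue (median -0.18), among them Ret, a receptor tyrosine kinase, at 25.32 RPKM in rescue, 37.41 in knockdown and 28.86 in control in the authors' deposited table (log2 fold change -0.58, FDR 1.0).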

How the data were processed

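The authors deposited an inclusion table in percent spliced in per library, with quality scores that were not used, per the file headers, on mm9. Their expression table holds 1 RPKM per group with the authors' log2 fold changes, p-values and FDR, and a further deposited table lists their splicing calls. Upstream tools named in the submitters' processing notes are Salmon 0.14.1 and edgeR. Reads were not given, so depth and counting error are unknown. Splicing was fitted with limma 3.58.1 in R 4.3.3 on percentages of all 12 libraries with 6 group means and a trended, robust variance. Of 401633 entries, 37194 first alternative sites were left out. The 28980 events tested had no missing value in the 12 libraries and averaged 2% to 98%. Calls needed a Benjamini-Hochberg adjusted p under 0.05 and 15 points. Line differences in expression used the authors' p-values as signed z. The limma p-values rest on the spread between 2 biological replicates per group, pooled over all 6 groups and moderated across events. They do not measure the spread of the compared libraries alone. Named events are those of largest moderated t per class, 1 per gene, and named genes those with an FDR under 0.05 or the lowest p of a list. The members and lists were chosen with earlier results of these data known. Scripts were tested on simulated data. The alternatives were another scale, filter, threshold, variance, replicate block and leaving out each library. Of the columns with per-sample values, 0 were left unused. Some features that these rules choose are not reported here.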

Additional observations from a re-analysis of the deposited data

Results flagged for a closer look

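For 3 features the test of a difference of the rescue effect between the lines passed. For the 2 genes among them it compares p-values as signed z, and not the fold changes themselves. Exon 3 of Sap30bp had 64.785 points between them (adjusted p = 2.61e-04, limma), at a mean of 99% in exon-3-containing rescue, 96.56% in exon-3-containing knockdown, 8.78% in exon-3-lacking rescue and 71.1% in exon-3-lacking knockdown. The predicted gene Gm29609 (adjusted p = 0.02178 from the signed z) was at 2.52 RPKM in rescue and 2.22 in knockdown of the exon-3-containing line, and at 1.67 in rescue and 3.47 in knockdown of the exon-3-lacking line, in the authors' deposited table. The predicted gene Gm48275 (adjusted p = 0.0126) was at 11.44 and 10.61 RPKM in rescue and knockdown of the exon-3-containing line and at 0 and 21.39 RPKM in rescue and knockdown of the exon-3-lacking line, in the authors' deposited table. These 2 genes are 0.00928% of 21541, and 295 had an unadjusted p under 0.05.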

How the results depend on the processing

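The count of 0 splicing calls became 1 with no filter on the mean and 2 with a plain variance, and ranged from 0 to 8 when each library was left out. In the exon-3-containing line it was 8 without knockdown replicate 1 and 2 without knockdown replicate 2, and 1 without either exon-3-lacking rescue library. The cause was not tested. The count of events that differ between the lines was 2 with a value in at least 10 libraries, and 1 to 2 with each library left out. The median difference of the 257 introns ranged from -10.755 to -6.665 points and that of the 99 exons from 4.99 to 7.705 points with each library left out. The exon 3 difference ranged from 2.2 to 2.68 points. With a replicate block, 0 events were called for rescue and 1 for the difference between the lines. Each group holds both replicate numbers, so the block cannot change a difference. The medians of -8.9 and 7.015 points under it were therefore fixed in advance. The correlation of deviations between same-numbered rescue and knockdown libraries was 0.17, with only 2 numbers. The other 84 values of the main results under these alternatives kept their direction and side of the threshold, and no result reversed. These values include the medians that the replicate block could not change. Of the values for named events and genes, 563 kept theirs and 9 had an adjusted p under 0.05 that the reported value did not have, those of Dapk1 and Ndor1 with a difference under 15 points. With 1 library left in a group, it is assumed to vary like the others. Read depth, which sets the precision of each percentage, is unknown.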
